A study of Mus musculus with 9 samples.

Results

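MHC class II and costimulation genes carry the signals by which an antigen-presenting cell engages a helper T cell, and 8 of them were followed through the adipose stroma of the mouse mammary gland. The genes were H2-Aa, H2-Ab1, H2-Eb1, H2-DMa, Cd74, Ciita, Cd80 and Cd86, out of 19930 genes on the array whose probe sets are annotated to exactly 1 gene symbol. They were taken by name, as genes of this function, with earlier results of these data known. Each was measured by 1 probe set, except Cd80, which had 2, and a gene with several probe sets was given their mean log2 signal. The 9 arrays were Affymetrix Mouse Gene 1.0 ST arrays, each holding RNA of 1 preparation of adipose stromal cells from female Balb/c mice. The cells came from nulliparous mice of 8 weeks (ASC-Ns, 3 arrays) and from mice at day 5 of lactation (ASC-Ls, 3 arrays). Others came from mice at day 3 of involution, once the pups had been taken away (ASC-Is, 3 arrays). The lactating and involuting mice had been mated at 8 weeks and so were older than the nulliparous mice. The labels name no transgene or agent. The fat pads were digested with collagenase and hyaluronidase, and by the methods of the study the RNA came from low passage cultures that had been plated from the floating adipocyte and the stromal vascular fractions. The labels call the 3 arrays of each stage biological replicates. Which mice stand behind which array is not given in the sources used here. Each p-value therefore reflects how far preparations of a stage differed, whether from the mice or from handling.

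In an antigen-presenting cell, class II molecules bind peptides of proteins that were taken up from outside and show them to CD4+ T cells. A class II molecule is a pair of an alpha and a beta chain, assembled around the invariant chain that Cd74 encodes, and the peptide exchange factor H2-DM later removes the last piece of that chain so that a peptide can bind. Transcription of these genes depends on the coactivator Ciita, and a T cell that has seen its peptide also needs costimulation through Cd28, which binds Cd80 and Cd86. Dendritic cells, B cells and macrophages are the cells best known for this program, and the mammary gland holds macrophages and dendritic cells around its ducts.

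The cells and the arrays were first compared with markers. Of 12 markers of adipose stromal cells 10 were measured, and their mean log2 signal lay between 9.71 and 10.82 in all arrays, with Col1a1 and Col1a2, the chains of type I collagen, at 12.93 and 12.96 in ASC-Ns. Between ASC-Ls and ASC-Ns, 7 of the 10 were lower and 3 were higher, and Pdgfra alone passed the limits given below. Of all genes, 0.627% passed in this comparison. Pdgfra was lower in ASC-Ls by a log2 change of -1.22, with an unadjusted p of 0.0413 in limma. Its ASC-L arrays lay below all ASC-N arrays, with 8.86 in ASC-L replicate 2. Some arrays stood apart. The mean of 18 macrophage markers was 7.78 and 7.73 in ASC-N replicates 1 and 2 but 5.88 in ASC-N replicate 3, the lowest of all arrays, and the 14 measured genes of luminal epithelial cells averaged 8.67 in the second ASC-L array and 7.36 in the second ASC-I array, whereas the other arrays lay between 5.50 and 6.72. In whole preparations such as these, fewer cells of a type and less RNA per cell cannot be told apart.

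Ahead of the signals, the sequence before the annotated starts was searched for motifs known from class II promoters. Of the 8 genes, 4 were found in a RefSeq table of promoters (H2-Aa, H2-Eb1, H2-DMa and Cd80), which is built on GRCm38.p6 and so on the C57BL/6J genome, whose H2 haplotype is not that of Balb/c mice. Class II promoters are known for an X box, bound by the RFX complex, followed by a Y box, an inverted CCAAT bound by NF-Y, on which Ciita is then recruited. A core of the X box, GCAAC, and CCAAT were searched on both strands in the 250 bases before and 50 bases after each start. The letters GCAAC and the spacing were chosen after these promoters had been read, and the motifs do not overlap each other. The 150 bases before the start of the chain genes H2-Aa (chr17:34287824-34287973, minus strand) and H2-Eb1 (chr17:34305717-34305866, plus strand) are printed with both motifs in capitals, and those of H2-DMa (chr17:34122682-34122831, plus strand, the first of its 2 starts) for contrast.
H2-Aa: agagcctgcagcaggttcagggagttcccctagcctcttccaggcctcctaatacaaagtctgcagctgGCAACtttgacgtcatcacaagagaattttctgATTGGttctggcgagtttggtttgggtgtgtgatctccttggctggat
H2-Eb1: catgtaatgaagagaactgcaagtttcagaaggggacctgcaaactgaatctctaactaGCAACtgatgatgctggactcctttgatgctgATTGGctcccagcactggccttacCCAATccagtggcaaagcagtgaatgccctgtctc
H2-DMa: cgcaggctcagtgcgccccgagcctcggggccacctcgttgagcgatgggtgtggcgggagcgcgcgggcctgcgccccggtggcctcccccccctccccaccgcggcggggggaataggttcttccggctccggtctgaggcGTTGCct

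In H2-Aa, GCAAC began at position -81 and ATTGG, the inverted CCAAT, at -48, with 28 bases between them. In H2-Eb1 they began at -91 and -59, with 27 bases between them. This pair, in this order and with 20 to 30 bases between, was in 0.6% of 32851 promoters of the table, whereas GCAAC alone was in 35.2% and CCAAT in 37.4%. Neither start of H2-DMa nor that of Cd80 held the pair. As the search asked for an exact core, a miss does not show that a promoter lacks an X box.

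H2-Aa, the alpha chain of the I-A molecule, did not separate the stages. The log2 signal was 5.73, 5.45 and 4.47 in replicates 1 to 3 of ASC-Ns, 5.69, 5.14 and 4.53 in ASC-Ls, and 4.61, 5.54 and 4.63 in ASC-Is. Each stage held both high and low arrays, from ASC-N replicate 3 as the lowest of all to ASC-N replicate 1 as the highest, which lay 2.40-fold apart. The difference was -0.10 on the log2 scale between ASC-Ls and ASC-Ns (standard error 0.41, 95% interval -1.02 to 0.82), 0.19 between ASC-Ls and ASC-Is (-0.73 to 1.12) and -0.29 between ASC-Is and ASC-Ns (-1.21 to 0.63), where standard errors are the same for the 3 comparisons.

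H2-Ab1, which encodes the beta chain that pairs with H2-Aa, followed another order. The arrays gave log2 signals of 7.20, 6.41 and 7.79 in ASC-Ns, 8.22, 7.42 and 7.06 in ASC-Ls, and 7.87, 7.47 and 7.81 in ASC-Is. ASC-N replicate 3, lowest of all arrays for the alpha chain, was the highest of its stage for the beta chain, and the ASC-I arrays lay within 0.40 of each other. H2-Ab1 differed by 0.58 between ASC-Is and ASC-Ns (standard error 0.37, 95% interval -0.26 to 1.43), and by 0.44 between ASC-Ls and ASC-Ns (-0.41 to 1.28). Without ASC-N replicate 3 the difference between ASC-Is and ASC-Ns was 0.91 and passed the limits. These were an unadjusted p under 0.05 in limma together with a change of at least 1.5-fold. That fit kept ASC-N replicate 2, the lowest of all arrays for H2-Ab1. Between ASC-Ls and ASC-Ns the difference was 0.76 without ASC-N replicate 3 but 0.08 without ASC-N replicate 2, and neither passed. Over the 9 arrays the root mean square difference between the centered log2 signals of the alpha and the beta chain was 0.773, larger than the SD of either gene over all arrays (0.53 and 0.54).

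H2-Eb1, the beta chain of the I-E molecule, varied little. The log2 signal of its probe set was 5.84, 5.56 and 5.58 in ASC-Ns, 5.93, 5.94 and 5.70 in ASC-Ls, and 5.50, 5.92 and 5.51 in ASC-Is. The stages overlapped, and all arrays lay within a 1.36-fold range. The difference was 0.19 between ASC-Ls and ASC-Ns (standard error 0.15, 95% interval -0.15 to 0.54), 0.21 between ASC-Ls and ASC-Is (-0.13 to 0.56) and -0.02 between ASC-Is and ASC-Ns (-0.36 to 0.32), so that changes of 1.5-fold lay outside the 3 intervals.

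**Figure D1:**
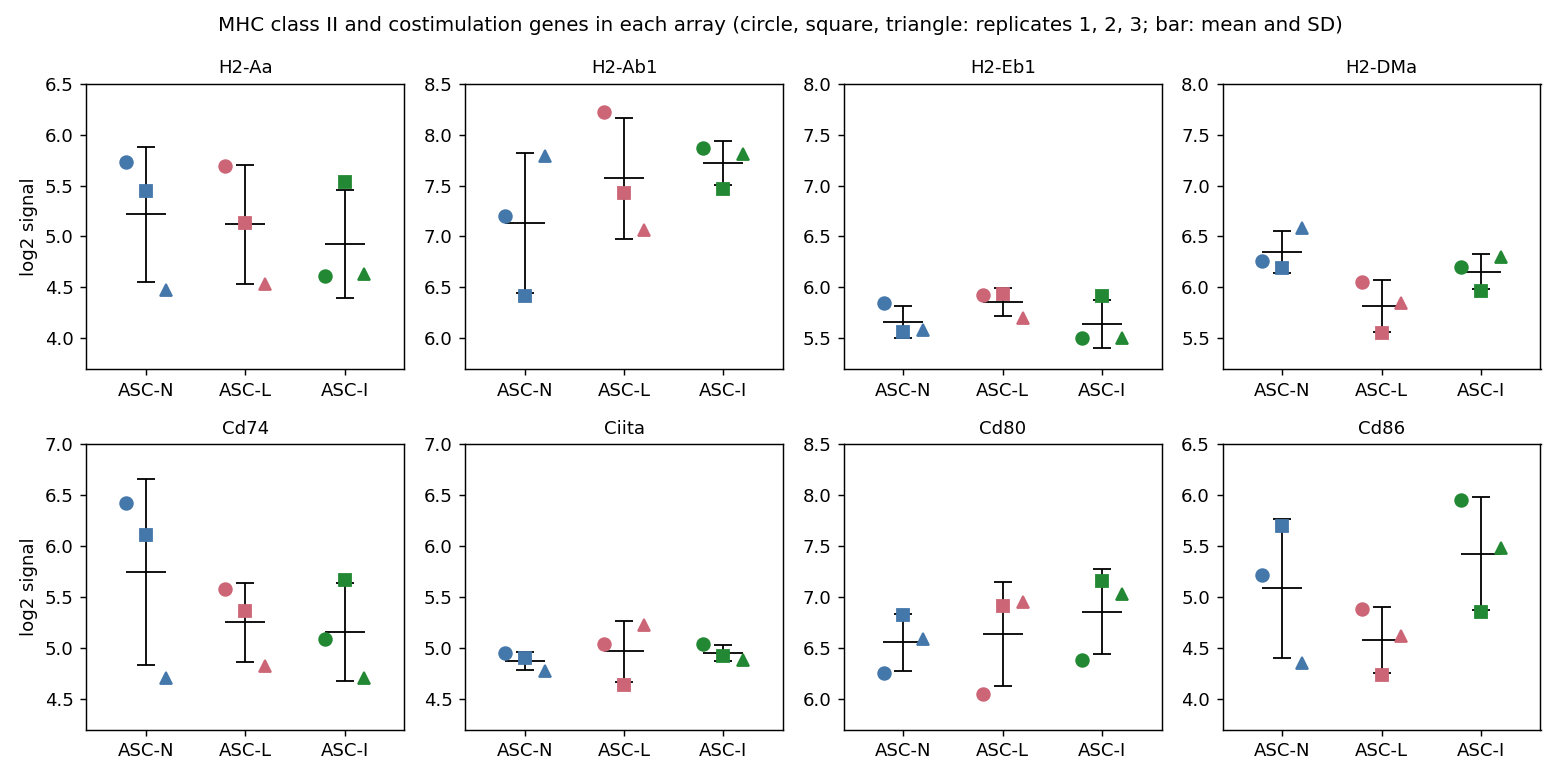
Log2 signal (vertical axis) of the 8 genes in each array by stage, with circles, squares and triangles for replicates 1, 2 and 3 and black bars for the mean and SD of each stage; every panel spans the same number of log2 units. ASC-N replicate 3 is the lowest array for H2-Aa and Cd74 and the highest ASC-N array for H2-Ab1 and H2-DMa, and the ASC-L arrays lie below the ASC-N arrays for H2-DMa.

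Cd74, the invariant chain that guides class II molecules to the compartment where peptides are loaded, spread most among the ASC-Ns. Its log2 signal was 6.42, 6.11 and 4.71 in ASC-Ns, 5.58, 5.36 and 4.82 in ASC-Ls, and 5.09, 5.67 and 4.71 in ASC-Is. ASC-N replicates 1 and 2 were the highest of all arrays and ASC-N replicate 3 was the lowest, 1.55 below the mean of the other two. With all arrays Cd74 differed from ASC-Ns by -0.49 in ASC-Ls (standard error 0.44, 95% interval -1.48 to 0.49) and by -0.59 in ASC-Is (-1.57 to 0.40). Without ASC-N replicate 3, the log2 change of Cd74 was -1.01 in ASC-Ls and -1.11 in ASC-Is, and both passed the limits with unadjusted p-values of 0.0119 and 0.00758 in limma. The first of these was 0.838 when adjusted over all genes. Without ASC-N replicate 1 or 2 the change in ASC-Ls was -0.15 or -0.31 and did not pass. ASC-Ls and ASC-Is differed by 0.10 (-0.89 to 1.08).

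H2-DMa, the alpha chain of the peptide exchange factor, was the member whose stages were furthest apart relative to their spread. Its log2 signal was 6.26, 6.19 and 6.59 in ASC-Ns, 6.05, 5.55 and 5.85 in ASC-Ls, and 6.20, 5.96 and 6.30 in ASC-Is. All ASC-L arrays lay below all ASC-N arrays, and the ASC-I arrays overlapped both. Relative to ASC-Ns, H2-DMa was 1.44-fold lower in ASC-Ls (log2 change -0.53, standard error 0.17, 95% interval -0.91 to -0.15), with an unadjusted p of 0.0120 in limma but a change under the 1.5-fold limit. When ASC-N replicate 2 or the first ASC-L array was left out the change was -0.61 or -0.65 and passed. Without ASC-L replicate 2 or ASC-N replicate 3 it was -0.40 or -0.41 and did not pass. Against ASC-Is the difference was -0.34 (95% interval -0.72 to 0.05), with an unadjusted p of 0.0782 in limma and of 0.0308 with the replicate number as a block. In a moderated F test of the 3 stages together, H2-DMa was the only one of the 8 genes at an unadjusted p under 0.05 (p of 0.0340 in limma, and 1.00 when adjusted over all genes), where 1.73% of all genes were. The number of members that passed this test was 0 when the first ASC-N array, the second or the third ASC-L array or the first ASC-I array was left out, where 1.15% to 2.26% of all genes passed. It was 2 without ASC-N replicate 3 (Cd74 and Cd86, not H2-DMa), where 3.23% passed, and 2 without ASC-I replicate 2 (H2-DMa and Cd86), where 2.44% passed. With array weights Cd74 passed in place of H2-DMa, beside 5.83% of all genes.

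Ciita, the coactivator that class II genes depend on, was nearly level. Log2 signals were 4.95, 4.90 and 4.78 in ASC-Ns, 5.04, 4.64 and 5.23 in ASC-Ls, and 5.04, 4.93 and 4.89 in ASC-Is. Its lowest and its highest array were both ASC-Ls, 1.51-fold apart. The differences were 0.09, 0.02 and 0.08 between ASC-Ls and ASC-Ns, ASC-Ls and ASC-Is, and ASC-Is and ASC-Ns (standard error 0.15), and the 95% intervals ran from -0.33 to 0.44 over the 3 comparisons. The mean signal of Ciita was above that of 26.6% of genes, and whether it or the other members were detected over background was not tested.

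Cd80, one of the ligands of Cd28 and Ctla4, also kept its stages overlapping. Its log2 signal was 6.26, 6.82 and 6.59 in ASC-Ns, 6.05, 6.92 and 6.95 in ASC-Ls, and 6.38, 7.16 and 7.03 in ASC-Is. Replicate 1 was the lowest array of each stage. The difference between ASC-Is and ASC-Ns was 0.30 (standard error 0.29, 95% interval -0.36 to 0.97), and those of ASC-Ls were 0.08 against ASC-Ns (-0.58 to 0.75) and -0.22 against ASC-Is (-0.88 to 0.44). Its 2 probe sets both had their lowest array among the first replicates, with ranges of 6.46 to 7.96 and 5.63 to 6.41.

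Cd86, the other ligand of Cd28 and Ctla4, was the single member to pass the limits in a comparison with all arrays. Its log2 signal was 5.22, 5.70 and 4.35 in ASC-Ns, 4.88, 4.24 and 4.62 in ASC-Ls, and 5.95, 4.85 and 5.48 in ASC-Is. ASC-I replicates 1 and 3 lay above every ASC-L array, ASC-I replicate 2 lay just below ASC-L replicate 1, and the ASC-Ns covered most of the range of both. ASC-Ls had 1.80-fold less Cd86 signal than ASC-Is, at 4.58 ± 0.33 (SD, n = 3) against 5.43 ± 0.55 (SD, n = 3). The log2 change was -0.85 (standard error 0.37, 95% interval -1.69 to -0.00213), with an unadjusted p of 0.0495 in limma, of 0.0404 with the replicate number as a block, and of 1.00 when adjusted over all genes. The mean signal of Cd86 was above that of 28.7% of genes. The call was lost when the first ASC-N array, the second or the third ASC-L array, or the first or the third ASC-I array was left out, where the log2 change lay between -0.87 and -0.58 and the unadjusted p between 0.0651 and 0.176. It was also lost with cyclic loess, an intensity trend with a robust prior or removal of the lowest 25% of signal. Between ASC-Ls and ASC-Ns the difference was -0.51 (95% interval -1.35 to 0.34), and -0.87 without ASC-N replicate 3, which passed. Without ASC-N replicate 1 or 2 it was -0.44 or -0.20 and did not pass. The difference of ASC-Is from ASC-Ns was 0.34 (-0.50 to 1.19).

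**Figure D2:**
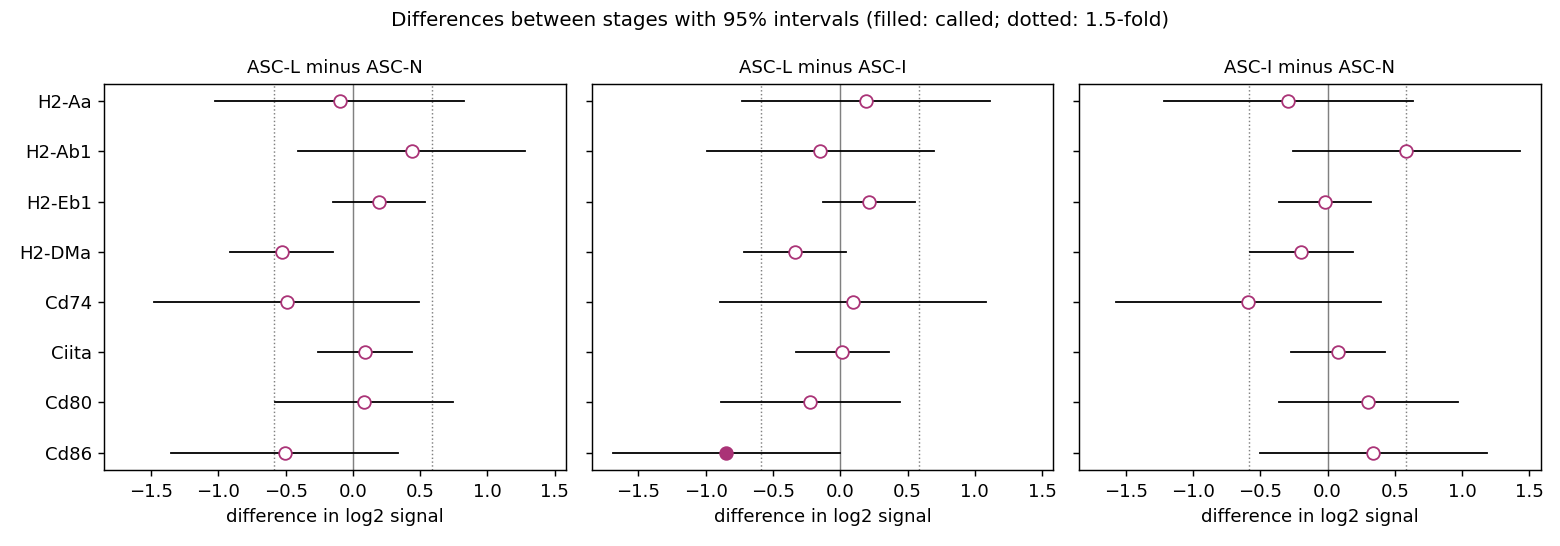
Difference in log2 signal (horizontal axis) of the 8 genes in the 3 comparisons of stages, with 95% intervals from limma; filled points passed the limits and dotted lines mark a 1.5-fold change. Cd86 between ASC-Ls and ASC-Is is the single filled point, its interval ends at -0.00213, and the interval of H2-DMa between ASC-Ls and ASC-Ns runs from -0.91 to -0.15.

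Few genes of the whole table passed the limits in any comparison. Between ASC-Ls and ASC-Is 1 of the 8 genes was lower (Cd86) and 0 were higher, where 0.406% and 0.0753% of all genes passed, 0.482% in all. Between ASC-Ls and ASC-Ns 0 of 8 passed against 0.627% of all genes in either direction, and between ASC-Is and ASC-Ns 0 of 8 passed against 0.251%. The arrays of both stages did not overlap for 1 of the 8 genes between ASC-Ls and ASC-Ns (H2-DMa) and for 8.59% of all genes, and for 0 of 8 in the comparisons of ASC-Ls with ASC-Is and of ASC-Is with ASC-Ns, against 5.56% and 6.54% of all genes. At an unadjusted p under 0.05 alone, 1, 1 and 0 of the 8 genes passed in the 3 comparisons, against 3.64%, 1.80% and 1.56% of all genes, and limma called 0 of the 19930 genes at an adjusted p under 0.05. In each comparison 4 of the 8 genes were higher and 4 were lower, with median log2 changes of -0.01 between ASC-Ls and ASC-Ns, -0.07 between ASC-Ls and ASC-Is and 0.03 between ASC-Is and ASC-Ns, beside 0.01, 0.01 and 0.00 over all genes. With the replicate number as a block, 207 genes (1.04%) passed between ASC-Ls and ASC-Is instead of 96, with Cd86 still the single member. Between ASC-Is and ASC-Ns, where the numbers were not regarded as pairs, 1 member passed with this block (Cd74, lower). There 0.452% of all genes did. Without ASC-N replicate 3, 2 of the 8 genes passed between ASC-Ls and ASC-Ns (Cd74 and Cd86, both lower), where 1.43% of all genes were lower. Without that array 2 also passed between ASC-Is and ASC-Ns (Cd74 lower and H2-Ab1 higher), where 0.933% of all genes were lower and 0.176% were higher.

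Among the markers of cells that present antigen, only genes of the macrophage list passed the limits. Set against ASC-Is, ASC-Ls had lower values for 17 of 18 macrophage markers, and 7 passed as lower, where 0.406% of all genes did. The log2 change was -1.81 for Cybb, a subunit of the oxidase of phagocytes, -1.74 for Lyz2, the lysozyme of macrophages, and -1.57 for Adgre1, which encodes F4/80. With the replicate number as a block 13 of the 18 passed as lower, these 7 included, where 0.893% of all genes did. Set against ASC-Ns, ASC-Ls also had lower values for 17 of the 18. Of these, 2 passed as lower, Csf1r (-1.07) and Cx3cr1 (-0.70), where 0.457% of all genes did. The mean of the list lay between 6.17 and 6.49 in ASC-Ls, 6.86 and 8.30 in ASC-Is and 5.88 and 7.78 in ASC-Ns. Cd86 had the same lowest ASC-N array and the same order of ASC-I arrays as this list, but its ASC-L arrays stood in another order, with replicate 2 lowest in place of replicate 3. Cd74 had the order of the list among the ASC-Ns and among the ASC-Ls, and another order among the ASC-Is, where replicate 2 was its highest array and the lowest of the list. The part of macrophages in the values of Cd86 and Cd74 was not tested.

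The marker lists of the other presenting cells had no calls. The mean of 14 markers of dendritic cells lay between 5.54 and 5.74 in all arrays and that of 10 markers of B cells between 4.47 and 4.70, and 0 genes of either list passed in a comparison. Itgax, the integrin chain CD11c, averaged 5.41, 5.29 and 5.74 in ASC-Ns, ASC-Ls and ASC-Is, with SDs of 0.34, 0.45 and 0.59 over 3 arrays each. The B cell antigen Ms4a1 lay at 4.06, 3.58 and 3.76 in the means of these stages, with its ASC-L arrays below all others. Its log2 change against ASC-Ns was -0.49 (95% interval -0.74 to -0.23), under the 1.5-fold limit. The list as a whole did not go this way. In that comparison 7 of the 10 B cell markers were higher and 3 were lower, with a median log2 change of 0.14. Of 10 markers of T cells, with means of 4.90 to 5.14, 0 passed. Of the arrays high in luminal epithelial markers, the second of the ASC-Ls was the lowest of all arrays for H2-DMa, Ciita and Cd86 and the highest of all for H2-Eb1. The second of the ASC-Is was the highest of its stage for H2-Aa, Cd74, H2-Eb1 and Cd80 and the lowest of its stage for H2-Ab1, H2-DMa and Cd86. Without both of these arrays Cd86 was still called between ASC-Ls and ASC-Is, but without the second ASC-L array alone it was not. The number of all genes called without both is given below. The part of epithelial cells in these values was not tested.

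**Figure D3:**
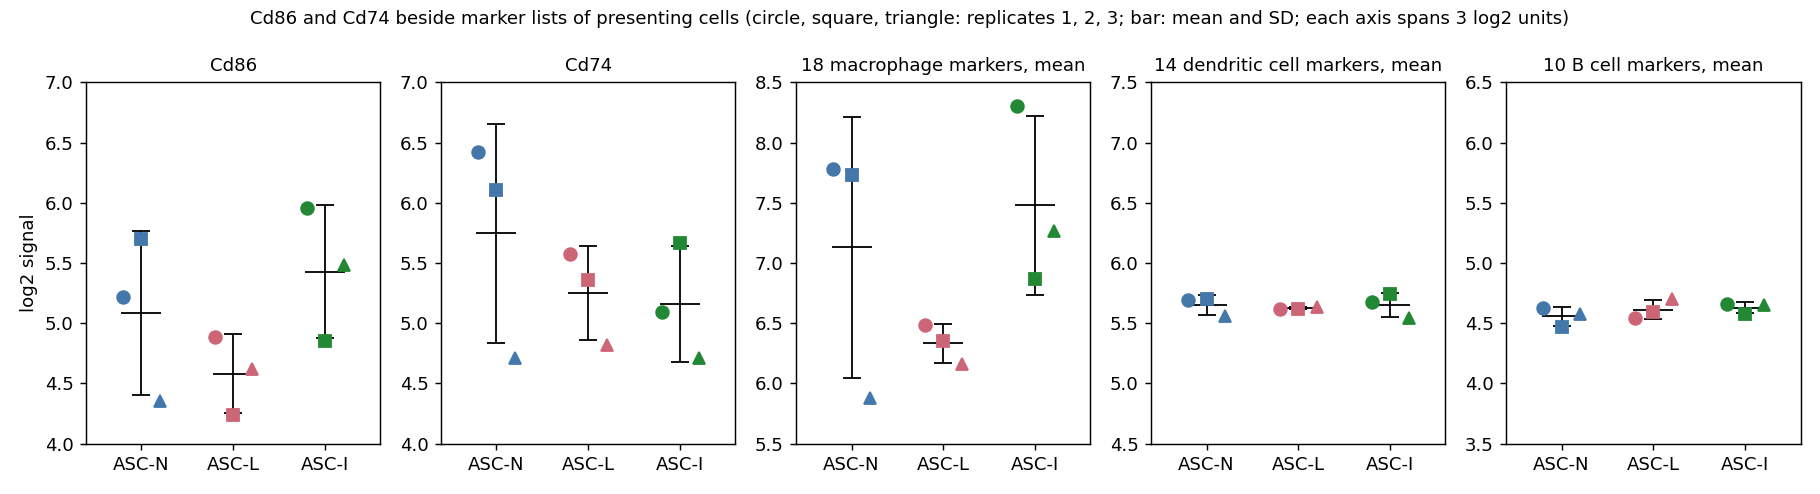
Log2 signal (vertical axis) of Cd86 and Cd74 beside the mean log2 signal of the marker lists of macrophages, dendritic cells and B cells in each array, with circles, squares and triangles for replicates 1, 2 and 3 and bars for the mean and SD of each stage. The macrophage list falls to 5.88 in ASC-N replicate 3, which is also low for Cd86 and Cd74, while the dendritic cell and B cell lists lie between 5.54 and 5.74 and between 4.47 and 4.70.

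The rest of the class II pathway was examined through lists of other genes. Of 6 further class II genes 4 were measured, H2-Ea, H2-Eb2, H2-Oa and H2-Ob, and 0 passed in a comparison, with median log2 changes of 0.10, 0.21 and -0.05 between ASC-Ls and ASC-Ns, ASC-Ls and ASC-Is, and ASC-Is and ASC-Ns. H2-Ea, the alpha chain that pairs with H2-Eb1 and is made in Balb/c but not in C57BL/6 mice, had log2 signals of 5.72, 5.90 and 4.43 in ASC-Ns, 5.66, 5.10 and 4.18 in ASC-Ls, and 4.27, 5.21 and 4.40 in ASC-Is. Its high and low arrays were those of H2-Aa, with the third replicate low in ASC-Ns and ASC-Ls and replicate 2 high in ASC-Is. H2-Ob, the beta chain of the modulator of H2-DM, lay at 4.99, 4.98 and 4.91 in the means of ASC-Ns, ASC-Ls and ASC-Is. H2-DMb1 and H2-DMb2 share a probe set and were not tested.

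Antigen processing followed with 10 measured genes, of which 0 passed. Ctsl, a lysosomal protease, averaged 12.04, 12.23 and 12.28 in ASC-Ns, ASC-Ls and ASC-Is, with SDs of 0.09, 0.26 and 0.0099 over 3 arrays each. Ctss, the protease that trims the invariant chain in dendritic cells and B cells, had log2 signals of 10.27, 9.84 and 6.84 in ASC-Ns, 8.75, 9.20 and 8.47 in ASC-Ls, and 10.79, 9.98 and 9.62 in ASC-Is. All ASC-L arrays lay below all ASC-I arrays, and the difference was -1.33 with a standard error of 0.78 (95% interval -3.09 to 0.43). With the replicate number as a block the same difference had a 95% interval of -2.60 to -0.055 and passed. Ctss was the single gene of this list to pass with the block, where 1.04% of all genes did. ASC-N replicate 3, low for Cd74 and Cd86, was lowest here too.

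Among 15 measured regulators of class II transcription 1 passed, between ASC-Ls and ASC-Is, where 0.482% of all genes did. This was Spi1, the myeloid transcription factor PU.1. The arrays of ASC-Ls had 5.50, 5.43 and 5.10, and those of ASC-Is had 7.34, 6.22 and 6.25. The log2 change of ASC-Ls from ASC-Is was -1.26 (standard error 0.45, 95% interval -2.29 to -0.23), with an unadjusted p of 0.0216 in limma, of 0.00334 with the replicate number as a block, and of 1.00 when adjusted over all genes. These arrays did not overlap, and the call was lost without ASC-L replicate 3 or ASC-I replicate 1. The RFX subunits Rfx5, Rfxap and Rfxank, which bind the X box, differed by -0.27 to 0.12 over the 3 comparisons, and Nfya, Nfyb and Nfyc, the subunits of NF-Y, by -0.16 to 0.19. Ifngr1 and Ifngr2, the chains of the interferon gamma receptor that induces Ciita, differed by -0.16 to 0.32. The medians of this list were 0.01, 0.03 and 0.02.

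Of 16 measured ligands of costimulation and coinhibition other than Cd80 and Cd86, 1 passed. This was Cd40, between ASC-Ls and ASC-Ns, where 0.627% of all genes passed. Cd40, the receptor through which T cell help activates presenting cells, had 6.46, 6.35 and 6.62 in the ASC-N arrays and 6.48, 8.05 and 8.04 in the ASC-L arrays. It rose by 1.05 (standard error 0.42, 95% interval 0.10 to 1.99), with an unadjusted p of 0.0334 in limma and of 0.998 when adjusted over all genes. ASC-L replicates 2 and 3 lay above all ASC-N arrays and ASC-L replicate 1 lay among them. The call was lost without any 1 of the ASC-N arrays, where the change stayed between 0.98 and 1.12 and the unadjusted p lay between 0.0523 and 0.0821, and without the second or the third ASC-L array, where the change was 0.78 and 0.79. Without ASC-L replicate 1 the log2 change was 1.57. Cd274, which encodes the coinhibitory ligand PD-L1, lay at 6.42, 6.74 and 6.61 in the means of ASC-Ns, ASC-Ls and ASC-Is, and the medians of the list were 0.05, 0.00 and 0.09. With the replicate number as a block 3 of these genes passed between ASC-Ls and ASC-Is, where 1.04% of all genes did. They were Cd40 as higher (log2 change 0.84) and Cd48 and Vsir, a ligand of 2B4 and an inhibitory checkpoint molecule, as lower (-0.77 and -0.60). Without the block 0 genes of this list passed in that comparison.

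The partners on T cells and the class I pathway gave no calls. Of 11 receptors 0 passed in a comparison, with medians of 0.15, 0.02 and 0.04, and Cd28, the receptor of Cd80 and Cd86, lay at 4.78, 4.81 and 4.97 in the means of ASC-Ns, ASC-Ls and ASC-Is. Of 13 measured class I genes 0 passed, with medians of -0.02, 0.01 and -0.01. B2m, the light chain of class I molecules, averaged 11.88, 11.98 and 11.95 in these stages, with SDs of 0.10, 0.44 and 0.37 over 3 arrays each. The class I heavy chains H2-K1 and H2-D1 share probe sets with other genes and were not tested.

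**Figure D4:**
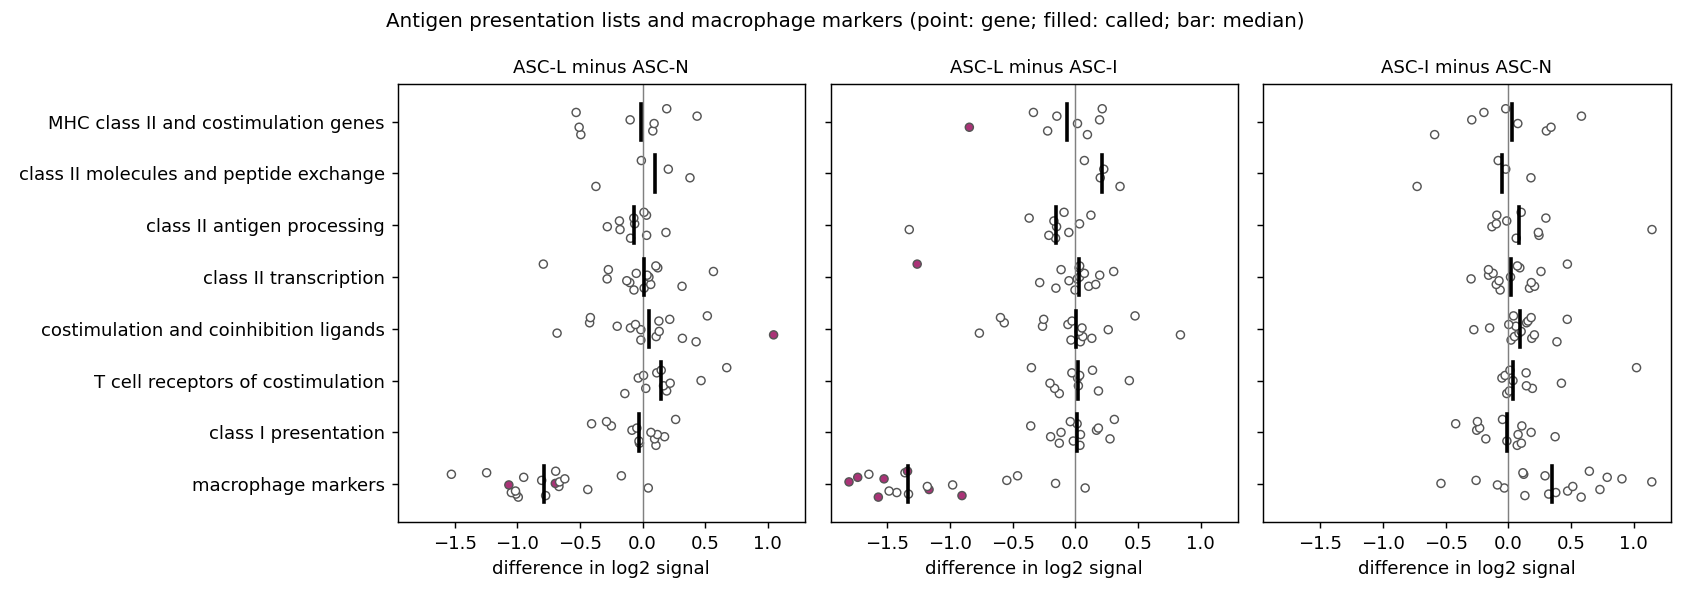
Difference in log2 signal (horizontal axis) of each gene of the 8 members, of 6 other lists of antigen presentation and of the macrophage markers in the 3 comparisons; each point is a gene, filled where it passed the limits, and black bars mark medians. The antigen presentation lists have medians between -0.15 and 0.21, while that of the macrophage markers is -0.79, -1.34 and 0.35.

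The genes most like each member were those with the smallest root mean square difference from its centered log2 signals over the 9 arrays, a description for which neighbors share the arrays. For Cd86 they were Lyz1, a lysozyme, at 0.136, Btk, the tyrosine kinase of B cells and myeloid cells, at 0.147 and Alox5, the 5-lipoxygenase of leukocytes, at 0.162, where the SD of Cd86 over all arrays was 0.60. For Cd74 the nearest was Mgl2, a lectin of macrophages and dendritic cells, at 0.208, followed by Espl1 and Slc16a12 at 0.230 and 0.237. H2-Aa had Btbd3 at 0.221, H2-Ea at 0.240 and Me2 at 0.246, so that the other class II alpha chain was among its nearest genes. H2-Ab1 had Ccn2, a matricellular protein of stromal cells, at 0.228, Cnih2 at 0.238 and Car9, a carbonic anhydrase induced by hypoxia, at 0.242, and no class II gene. The neighbors of H2-DMa were B3galnt1, Gm5617 and Zkscan7 at 0.0743 to 0.0944, and those of Cd80 were Tfe3, Parvb and Apbb1ip at 0.200 to 0.205. H2-Eb1 and Ciita, which varied little, had Tnfsf10, Mep1b and Hmgn1 at 0.0699 to 0.0772 and Defb42, Nfe2 and Atad3aos at 0.0556 to 0.0663.

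Among the 8 genes themselves, the closest pair was H2-Aa and Cd74, at 0.252, below the SD of either over all arrays (0.53 and 0.61), and the most distant was H2-Ab1 and Cd74, at 0.929. H2-Eb1 and Ciita were 0.254 apart, which is more than the SD of either (0.19 and 0.17), so that the small value goes with how little both varied. H2-Aa and H2-Eb1, the genes in which the pair of motifs was read, were 0.400 apart, below the SD of H2-Aa but above that of H2-Eb1. Cd80 and Cd86, which bind the same receptors, were 0.722 apart, more than the SD of either over all arrays (0.39 and 0.60). For every member except H2-DMa the range over the ASC-N arrays was larger than each difference between stage means. The range over the ASC-N arrays was 1.71 for Cd74, 1.37 for H2-Ab1, 1.34 for Cd86 and 1.26 for H2-Aa. The range within a stage was smaller than the largest difference between stage means for H2-DMa in all stages (0.39, 0.50 and 0.34 against -0.53), for the ASC-I arrays of H2-Ab1 (0.40 against 0.58) and for the ASC-L arrays of Cd86 (0.65 against -0.85). Over all arrays the SD of Cd74, Cd86, H2-Ab1 and H2-Aa was above that of 94.9%, 94.5%, 93.1% and 93.0% of all genes, whereas those of H2-Eb1 and Ciita were above 48.6% and 37.1%.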

How the data were processed

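The log2 signals per probe set were made and deposited by the authors, with RMA as the methods of the study state, while the submitters' processing notes name GCRMA and limma, and no versions are given. They were used without further normalization. Array medians lay between 5.93 and 6.00. Scan dates and detection calls were not used here. Of 28348 probe sets, 21762 carried 1 symbol, 1621 several and 4965 none, and only the first were averaged per gene, into 19930 genes. These genes were fitted over all 9 arrays, 1 mean per stage, with limma 3.58.1 in R 4.3.3 (prior degrees of freedom 2.91), and p-values were adjusted over them by the Benjamini-Hochberg method. The script was tested on simulated data. Members, lists, rules and alternatives were chosen with earlier results of these data known. Genes named in the text are the 8 members, from each other list up to 4 genes that passed with the largest change or otherwise up to 2 of the highest mean signal, and the 3 genes nearest to each member. Others were added for their role in the pathway, after their values had been seen.

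The same replicate numbers occur in each stage. Across genes, the deviations of equally numbered arrays from their stage means had r = 0.47, 0.73 and 0.46 for lactation with involution, each over 0.1. For lactation with nulliparous arrays r was -0.08, 0.40 and 0.45, and for involution with nulliparous arrays 0.07, 0.43 and 0.50. The numbers were therefore regarded as pairs only in the first, though neither the labels nor the methods name such pairs. The r of 0.73 there was that of the second replicates, the arrays high in luminal epithelial markers. The block, however, was fitted over all arrays together, ASC-Ns included, although r was -0.08 and 0.07 for the first replicates with nulliparous arrays. Its p-values, intervals and counts thus rest in part on that pairing too. The block is given beside results for ASC-Ls and ASC-Is where it changed a call or a count, and beside H2-DMa, Cd86 and Spi1. Block results for the comparisons with ASC-Ns are given only to show how calls and counts shifted. Motifs were counted in promoters of RefSeq on GRCm38.p6.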

Additional observations from a re-analysis of the deposited data

How the results depend on the processing

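The 9 arrays limit every value, and signal over background was not measured. Between ASC-Ls and ASC-Ns, ASC-Ls and ASC-Is, and ASC-Is and ASC-Ns, 125, 96 and 50 genes passed. Array weights gave 311 and 187 for the first and the third comparison, the replicate block 295, 207 and 90, and leaving out ASC-L replicate 2 and ASC-I replicate 2 together gave 194 and 144 for the second and the third. Leaving out single arrays gave 80 to 404, 36 to 331 and 32 to 221. The counts moved by over 1.5 times in the first when replicate 1 (80) or 3 (352) of the ASC-Ns or replicate 1 (404) or 3 (230) of the ASC-Ls was dropped, without ASC-L replicate 1 (331) or ASC-I replicate 1 (36), 2 (316) or 3 (61) in the second, and without ASC-N replicate 1 (32) or 3 (221) or ASC-I replicate 2 (83) or 3 (92) in the third. Of the 8 members, 0, 1 and 0 passed. Array weights gave 1 in each comparison (Cd74 against ASC-Ns), the replicate block 1 between ASC-Is and ASC-Ns (Cd74), and cyclic loess, an intensity trend with a robust prior or removal of the lowest 25% of signal gave 0 between ASC-Ls and ASC-Is. Single arrays gave 0 to 2, 0 to 1 and 0 to 2. In the F test of all stages 1 member passed, where 1.73% of all genes did. The number was 0 without both named arrays, where 2.65% of all genes passed, and 0 to 2 without single arrays, where 1.15% to 3.23% passed.

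Some differences near 0 changed sign without single arrays. Between ASC-Ls and ASC-Ns they ran from -0.47 to 0.20 for H2-Aa, -0.038 to 0.26 for Ciita and -0.074 to 0.38 for Cd80, which was -0.057 without both named arrays. Between ASC-Ls and ASC-Is they ran from -0.093 to 0.50 for H2-Aa, -0.47 to 0.11 for H2-Ab1, -0.13 to 0.35 for Cd74, -0.11 to 0.18 for Ciita and -0.46 to 0.074 for Cd80, and between ASC-Is and ASC-Ns from -0.16 to 0.070 for H2-Eb1 and -0.028 to 0.64 for Cd86. The replicate block changed no other call of a member. The cause of these shifts was not tested.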
